A study of Mus musculus with 8 samples.

Results

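Annexins are proteins that bind acidic membrane lipids, phosphatidylserine among them, when calcium is present. They take part in membrane repair, vesicle traffic, the clearance of dying cells and, when secreted, the signalling that ends inflammation. In myeloid cells the best known members are Anxa1, a ligand of formyl peptide receptors that limits leukocyte recruitment, Anxa2, which pairs with S100a10 to bind plasminogen at the cell surface, and Anxa5, which binds exposed phosphatidylserine. The members described here are Anxa1, Anxa2, Anxa3, Anxa4, Anxa5, Anxa6, Anxa7 and Anxa11, chosen by their gene symbols alone, 8 of the 22558 symbols in the tables.

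Transcript levels were measured by RNA sequencing in 2 cell populations harvested from the injured mouse retina, 4 libraries labelled microglia (replicates 1 to 4) and 4 labelled infiltrating macrophages (replicates 5 to 8). All 8 libraries share the genotype Msi1-CreERT2/+; R26R-DTA/+, the C57BL/6; 129 mixed background, an age of about 5 months and the time point, day 7 after injury. Msi1-CreERT2 is a tamoxifen-dependent Cre recombinase under the Musashi-1 gene and R26R-DTA a Cre-dependent diphtheria toxin A allele, so the injury is the loss of cells that had Cre activity. No uninjured retina is among the libraries, and the microglia are those of an injured eye. The macrophage libraries carry GFP in their titles, but no source used here states what GFP marks or which sort gates were applied. The labels do not say whether libraries came from separate animals or from pools, so a p-value here weighs a difference only against variation among the libraries, part or all of which may be technical. Levels are in FPKM, a value scaled to transcript length and to the number of mapped fragments, so levels of different annexins can be set side by side. A gene was tested where it had at least 1 FPKM in at least 4 libraries, and called where its adjusted p in limma was below 0.05.

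The populations separated by most of their defining markers. Summed over 10 microglial genes such as P2ry12 and Sall1, the level was 2638 to 4028 FPKM in microglia and 700.3 to 2397 FPKM in macrophages. Within this list Tmem119, Fcrls and Cx3cr1 overlapped between the populations. Tmem119 was at 179 to 339 FPKM in microglia and 106 to 365 FPKM in macrophages, highest in macrophages 6. Of 10 genes listed for monocyte-derived cells, Cd74, an MHC class II chaperone, made up 83.9% to 96.1% of the summed level in macrophages, at 2151 to 7246 FPKM against 30.8 to 140 FPKM in microglia. The other 9, Ccr2 and Ly6c2 among them, summed to 17.1 to 74.5 FPKM in microglia and 86.9 to 1041 FPKM in macrophages, lowest in macrophages 7. Of these, Fn1 was at 15.9 to 70.5 FPKM in microglia and 4.29 to 43.4 FPKM in macrophages, and Vcan overlapped between the populations. The libraries also differed in ways the labels do not describe. Microglia 2 had the fewest genes at 1 FPKM or more (5995), and the FPKM sums ran from 207154 in macrophages 7 to 512101 in macrophages 6. Transcripts of 4 Y-linked genes summed to 11.7 to 25.8 FPKM in microglia 1 to 3 and to at most 1.97 FPKM in the other 5 libraries. Xist was at 0.000218 to 0.000779 FPKM in microglia 1 to 3 and at 4.78 to 7.94 FPKM in the other 5 libraries. By these transcripts, microglia 1 to 3 were of male type and the other 5 libraries of female type. The labels give no sex, and the 1.97 FPKM of Y-linked transcripts was in macrophages 7. Haemoglobin transcripts summed to 160, 165 and 2435 FPKM in the same 3 microglia libraries, to 0.683 FPKM in microglia 4 and to at most 23.7 FPKM in macrophages. The sex transcripts and haemoglobin nearly coincide with the population. Their part in the differences below cannot be told apart from it, with microglia 4 the only microglia library resembling the macrophages in both. Approximate depth was estimated from the most frequent product of FPKM and transcript length within a preset low range, taken as that of a single fragment. It was 11900000 to 24400000 fragments per library.

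Promoters of 3 annexins are shown because Anxa1 was near absence in microglia while Anxa2 and Anxa5 were well expressed in both populations. RefSeq (GRCm38.p6) gave promoters for 6 of the 8 members, and Anxa3 and Anxa6 were not matched. Each line holds the 250 bases before the start of transcription, 5′ to 3′, and capitals mark matches to searched motifs. The first lies at chr19:20390672-20390921 on the minus strand, the next at chr9:69453433-69453682 on the plus strand and the last at chr3:36475888-36476137 on the minus strand.
Anxa1: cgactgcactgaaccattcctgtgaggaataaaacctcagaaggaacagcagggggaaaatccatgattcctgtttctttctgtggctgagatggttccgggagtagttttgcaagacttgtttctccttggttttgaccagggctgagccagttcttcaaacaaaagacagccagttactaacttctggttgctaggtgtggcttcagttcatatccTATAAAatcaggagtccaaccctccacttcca
Anxa2: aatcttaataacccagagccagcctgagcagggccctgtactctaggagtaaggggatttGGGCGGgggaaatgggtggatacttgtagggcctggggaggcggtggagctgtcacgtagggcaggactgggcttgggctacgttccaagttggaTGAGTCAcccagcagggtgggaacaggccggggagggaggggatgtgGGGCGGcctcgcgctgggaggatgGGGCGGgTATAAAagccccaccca
Anxa5: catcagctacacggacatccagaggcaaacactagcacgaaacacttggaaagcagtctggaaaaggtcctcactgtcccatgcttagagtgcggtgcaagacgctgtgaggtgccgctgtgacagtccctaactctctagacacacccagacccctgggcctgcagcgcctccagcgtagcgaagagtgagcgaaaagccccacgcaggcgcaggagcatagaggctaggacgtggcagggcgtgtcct
The 5 motifs searched on both strands were the TATA box (TATAAA), the Sp1 box (GGGCGG), the CCAAT box (CCAAT), the AP-1 site (TGANTCA) and the PU.1 site (GAGGAAG), and no matches overlapped in these promoters. Among all 32851 promoters of this length, TATAAA was held by 12.4%, GGGCGG by 32.7%, CCAAT by 33.8%, TGANTCA by 6.75% and GAGGAAG by 10.6%. Anxa1 held TATAAA at 32 to 27 bases before the start and none of the other motifs, with 46.0% G and C. Anxa2 held TATAAA at 17 to 12 bases before the start, TGANTCA at 95 to 89 bases and GGGCGG at 3 places, with 62.4% G and C. Anxa5 held none of the 5 motifs, with 58.8% G and C. Neither of the promoters of Anxa4 held any, and that of Anxa11 held 3 copies of GGGCGG. The promoters of Anxa7 held 1 and 4 copies of GGGCGG, but they overlap and the 1 copy is also among the 4. A match is a description of the letters only.

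Across the family, 7 of the 8 annexins were tested between the populations. Anxa1 was called higher in macrophages, Anxa3 was called lower, and 5 were not called. Over all 9352 genes tested, limma called 2.34% in either direction, 1.65% higher in macrophages and 0.695% lower. Differences are in log2(FPKM + 1), positive where macrophages were higher, and their median over the 7 annexins was 0.67, beside 0.37 for all tested genes. In bulk samples of this kind, fewer cells of a type and less RNA per cell cannot be told apart. The plot of annexin levels by library shows every value behind these calls.

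**Figure D1:**
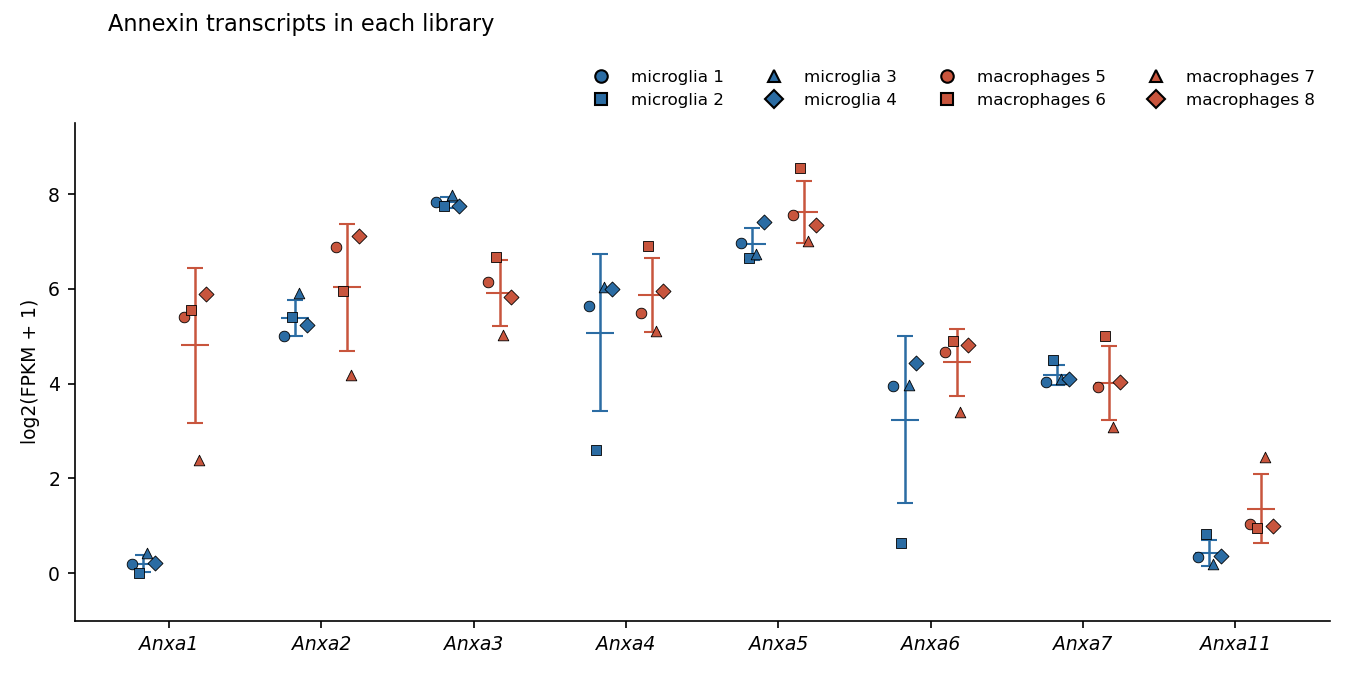
Level of each annexin in each library, as log2(FPKM + 1), for 4 microglia libraries (blue) and 4 macrophage libraries (red), with marker shapes for single libraries and the mean ± SD of the log2 values as lines. Anxa1 is near 0 in all 4 microglia libraries and between 4.20 and 58.7 FPKM in macrophages, while all 4 microglia libraries lie above all 4 macrophage libraries for Anxa3.

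Anxa1 (chr19:20447924-20465161 in mm9, minus strand) showed the largest difference of the tested members. In microglia it was listed at 0.139, 0, 0.342 and 0.154 FPKM in libraries 1 to 4. In macrophages it was at 41.5, 45.9, 4.20 and 58.7 FPKM in libraries 5 to 8. Every macrophage library was above every microglia library, and macrophages 7 was about an order of magnitude below the other macrophages. The means were 0.159 ± 0.141 FPKM (SD, n = 4) and 37.6 ± 23.4 FPKM (SD, n = 4). The log2 difference was 4.60 (SE 0.77, 95% interval 3.02 to 6.19), with a limma adjusted p of 0.000843. Anxa1 passed the filter only through the macrophage libraries.

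The low microglial level of Anxa1 rested on few fragments. With the estimated depth, the values in microglia came to about 2.1, 0, 8.2 and 4.0 fragments, against 1264, 1240, 123 and 1650 in macrophages. The zero in microglia 2 allows up to 0.120 FPKM, the level of 3 fragments there, for counting error only. Microglia 4, the microglia library with Y-linked and haemoglobin transcripts near 0, was 4.60 below the macrophages for Anxa1 on the log2 scale, a value from 1 library with no spread of its own.

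Summed markers listed for recruited cells were mostly higher in the macrophage libraries. Without Cd74, the 9 monocyte-derived genes summed to 386, 1041, 86.9 and 469 FPKM in macrophages 5 to 8, lowest in the library lowest for Anxa1 and highest in macrophages 6, which was not the highest for Anxa1. Cd74 alone was at 6316, 5438, 2151 and 7246 FPKM in these libraries. Of 10 neutrophil markers, 9 were in the tables and Ngp was at 0 everywhere. Their sum was 0.667 to 1.46 FPKM in microglia and 20.8, 150, 70.1 and 39.1 FPKM in macrophages 5 to 8. Its highest library was not the highest for Anxa1. The sum in macrophages was mostly S100a9 and Retnlg, while Mpo, Elane, Camp and Ltf were each at most 0.678 FPKM there. The sum of 8 dendritic cell markers was 0.269 to 11.6 FPKM in microglia and 49.4, 75.2, 4.39 and 158 FPKM in macrophages 5 to 8. Macrophages 7 thus lay within the microglia range. The sum followed the same order of libraries as Anxa1, an order that no single gene of the list kept. For example, Ccr7 was at 15.7 FPKM in macrophages 5 and 11.1 FPKM in macrophages 6. Whether such cells were present, and their part in the Anxa1 difference, was not tested.

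Anxa3 (chr5:97222404-97274987, plus strand), known to promote blood vessel growth, was lower in macrophages. Its level was 227, 213, 253 and 215 FPKM in microglia 1 to 4. It was 70.1, 100.4, 31.4 and 56.1 FPKM in macrophages 5 to 8. The groups did not overlap, and the microglia libraries lay within 1.19-fold of each other. The means were 227 ± 18.8 FPKM (SD, n = 4) in microglia and 64.5 ± 28.8 FPKM (SD, n = 4) in macrophages, a ratio of 3.52. The log2 difference was -1.91 (SE 0.48, 95% interval -2.90 to -0.92), with a limma adjusted p of 0.0291.

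The Anxa3 call was close to the threshold. It was lost on leaving out microglia 1 (limma adjusted p = 0.0899), 3 (0.0847) or 4 (0.0627), or macrophages 5 (0.0855), 7 (0.0623) or 8 (0.0907). It was kept without microglia 2 (0.0496) and without macrophages 6 (0.00656). Scaling the libraries to an equal FPKM sum gave an adjusted p of 0.00261. Against microglia 4 alone, 1 library with no spread of its own, the difference was -1.84. The sums of microglial markers also differ between the populations, as given above, and their part in the Anxa3 difference was not tested.

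Anxa2 (chr9:69301490-69339592, plus strand) overlaps an antisense transcript, Gm16144, and the miRNA CT009708.1, on the same strand as Anxa2, in the annotation. Reads from bases shared with Gm16144 cannot be assigned without strand, and for those shared with CT009708.1 strand would not help. It was at 31.3, 41.2, 59.3 and 36.7 FPKM in microglia 1 to 4. Macrophages 5 to 8 had 117, 61.3, 17.05 and 137 FPKM. Of the macrophages, 3 libraries were above all microglia and macrophages 7 was below them all. Its difference was 0.64 (SE 0.59, 95% interval -0.58 to 1.86), with a limma adjusted p of 0.659, and it was not called. Without macrophages 7 the difference was 1.26 and still not called (limma adjusted p = 0.199). With array quality weights, set by how closely each library followed the fit, the difference was 1.49 and called (limma adjusted p = 0.0164). The weights ran from 0.254 for microglia 2 to 6.18 for macrophages 5, with 0.528 for macrophages 7. Under these weights 1075 of 9352 genes were called, against 219 in the main fit.

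Anxa5 (chr3:36347846-36374809, minus strand), the phosphatidylserine binder used as a probe for dying cells, was high in both populations. It was at 124, 99.3, 106 and 170 FPKM in microglia 1 to 4. Levels in macrophages 5 to 8 were 189, 372, 128 and 162 FPKM. The groups overlapped, since microglia 4 was above macrophages 7 and 8. On the log2 scale the difference was 0.67 (SE 0.47, 95% interval -0.31 to 1.65) with a limma adjusted p of 0.536.

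Anxa4 (chr6:86686834-86743578, minus strand), found in epithelia and linked to ion transport and membrane repair, varied most through a single library. It was at 49.2, 5.09, 65.2 and 63.0 FPKM in microglia 1 to 4. The macrophage libraries 5 to 8 gave 44.2, 119, 33.7 and 60.8 FPKM. Microglia 2 was far below the rest, and the other 3 microglia libraries lay within the range of the macrophages. The difference came to 0.79 (SE 0.67, 95% interval -0.59 to 2.18) with a limma adjusted p of 0.616, and without microglia 2 it was -0.031.

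Anxa6 (chr11:54792464-54846973, minus strand), which carries a duplicated annexin core and acts in endosomal cholesterol traffic, shared that low library. It was at 14.4, 0.553, 14.6 and 20.5 FPKM in microglia 1 to 4. The values in macrophages 5 to 8 were 24.6, 28.7, 9.60 and 27.4 FPKM. Of the macrophages, 3 libraries were above all microglia, while macrophages 7 lay below microglia 1, 3 and 4. Its difference was 1.21 (SE 0.74, 95% interval -0.32 to 2.73) with a limma adjusted p of 0.456, and without microglia 2 it was 0.34.

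Anxa7 (chr14:21274483-21299355, minus strand), first described as a driver of granule fusion, had nearly equal means. It was at 15.4, 21.6, 16.1 and 16.1 FPKM in microglia 1 to 4. Macrophages 5 to 8 had 14.3, 31.2, 7.51 and 15.4 FPKM. The macrophage values lay on both sides of the microglia. On the log2 scale the difference was -0.16 (SE 0.59, 95% interval -1.37 to 1.05) with a limma adjusted p of 0.932, an interval that leaves room for more than a doubling in either direction.

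Anxa11 (chr14:26661641-26706290, plus strand), which links RNA granules to lysosomes, was the least abundant member in macrophages. It was at 0.265, 0.770, 0.140 and 0.293 FPKM in microglia 1 to 4. Levels in macrophages 5 to 8 were 1.05, 0.941, 4.46 and 1.001 FPKM. All macrophage libraries were above all microglia libraries, and macrophages 7, the lowest macrophage library for the other 7 members, was the highest for Anxa11. With 3 libraries at 1 FPKM or more it did not enter the main test, and in a fit without a filter its log2 difference was 0.93 (SE 0.46) with a limma adjusted p of 0.562.

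An exact two-sided permutation test over the 8 libraries gave p = 0.0286 for Anxa1, Anxa3 and Anxa11, the smallest p that 4 libraries against 4 can give. The same permutation test gave p = 0.114 to 0.629 for the other 5 members. Of the 7 tested annexins, libraries did not overlap with macrophages above for 1, Anxa1, and with macrophages below for 1, Anxa3. Anxa1 passed the filter with 4 libraries at 1 FPKM or more, all of them macrophages. Its lack of overlap and its permutation p were therefore fixed by its passing the filter and are no separate result. Anxa11, outside the tested genes, did not overlap either, with macrophages above. Any gene without overlap gets the smallest permutation p, so for Anxa3 and Anxa11 that p only restates the lack of overlap. Over the 9352 tested genes, 5.69% did not overlap with macrophages above and 1.95% with macrophages below. The plot of differences with their intervals shows which members stand clear of 0.

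**Figure D2:**
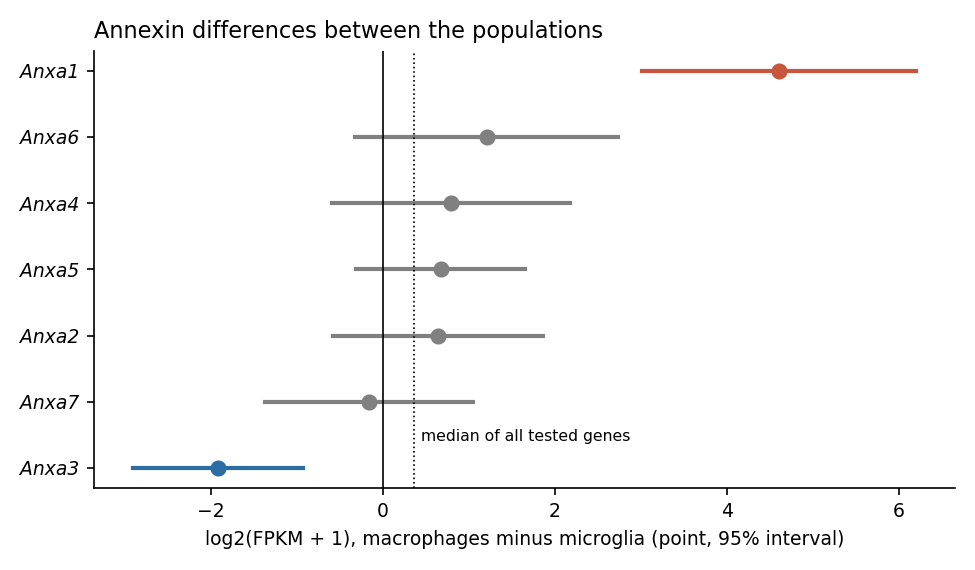
Difference of each of the 7 tested annexins between the populations, macrophages minus microglia in log2(FPKM + 1), with its 95% interval (limma, 4 libraries a group). Red marks the member called higher (Anxa1, 4.60), blue the member called lower (Anxa3, -1.91) and grey the 5 not called, and the dotted line is the median of all tested genes, 0.37.

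Rescaling the libraries moved the median of all genes. The median difference over all tested genes was 0.37 as deposited, 0.48 with equal FPKM sums, 0.27 with upper-quartile scaling, 0.12 with median-of-ratios scaling and -0.03 with quantile normalization. The share of called genes that were higher in macrophages was 70.3% as deposited, 72.5% with equal FPKM sums, and 59.5%, 54.3% and 53.4% under the last 3 scalings. Anxa1 remained higher and Anxa3 lower, and both remained called, under each of these scalings. The 9352 genes tested included 1402 at an unadjusted p below 0.05.

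The order of the annexins differed between the populations. In microglia, Anxa3 was highest and Anxa5 next in all 4 libraries, and Anxa5 was above Anxa4 in all 4. Anxa4 and Anxa2 (mean 45.6 and 42.1 FPKM) were not apart, and Anxa2 was above Anxa7 in all 4. From Anxa7 down through Anxa6, Anxa11 and Anxa1, no neighbours kept their order in all 4 libraries. In macrophages, Anxa5 was highest in all 4 libraries. Below it Anxa2, Anxa4, Anxa3, Anxa1, Anxa6 and Anxa7 followed by mean level, but no neighbours among these 6 kept their order in all 4 libraries. Anxa7 was above Anxa11 in all 4.

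Among all 22549 symbols ranked by level, Anxa3 held ranks 180 to 249 in microglia but 640 to 886 in macrophages. The ranks of Anxa5 were 242 to 535 in microglia, and in macrophages 198 to 224. Anxa1 ranked from 9836 to 13194 in microglia and from 627 to 4463 in macrophages. Multiplying a library by a scaling factor changes neither these ranks nor the shares that follow.

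The ranges of the summed annexin level overlapped between the populations, while those of some members' shares did not. The 8 members summed to 470.0 ± 64.8 FPKM (SD, n = 4) in microglia and 504 ± 214 FPKM (SD, n = 4) in macrophages, or 0.143% and 0.161% of all FPKM. Anxa3 made up 49.2%, 55.8%, 49.2% and 41.2% of the annexin sum in microglia 1 to 4. In macrophages 5 to 8 it made up 13.96%, 13.2%, 13.3% and 10.8%. The macrophage shares lay within a few percentage points of each other although the FPKM of Anxa3 varied 3.20-fold among the same libraries.

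Anxa5 held 20.6% to 32.6% of the annexin sum in microglia and 31.2% to 54.3% in macrophages, and these ranges overlapped. Anxa1 held 0% to 0.0664% in microglia and 1.78% to 11.3% in macrophages. The ratio of Anxa3 to Anxa5 was 1.26 to 2.39 in microglia and 0.245 to 0.371 in macrophages, with no overlap. The plot of the make-up by library shows a larger Anxa3 share in every microglia library than in any macrophage library. As scores over chosen members, these shares were not tested.

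**Figure D3:**
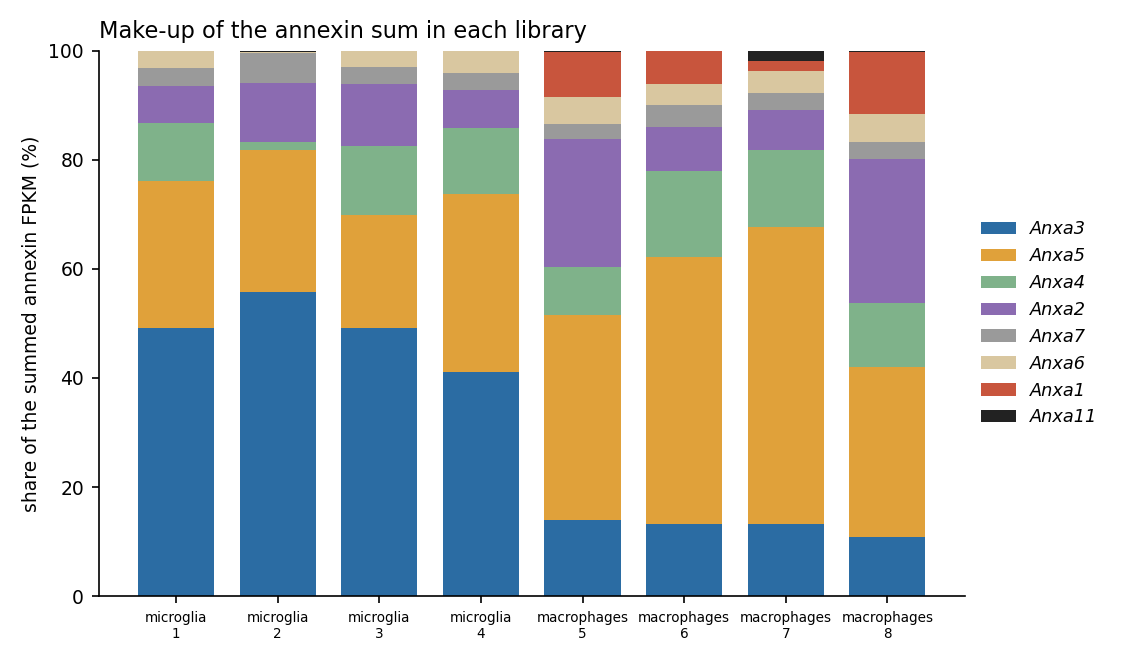
Make-up of the annexin sum in each library, as the percent of the summed FPKM of the 8 members (y axis, 0 to 100%), with 1 stacked bar for each of 4 microglia and 4 macrophage libraries. Anxa3 (blue) takes 41.2% to 55.8% in microglia and 10.8% to 13.96% in macrophages, and Anxa1 (red) is visible only in macrophages.

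Within macrophages the annexins moved largely with the library. Macrophages 7 was the lowest macrophage library for 7 of the 8 members, and macrophages 6 was the highest for 5. The FPKM sums of these libraries were the lowest and the highest of all 8. Within microglia, library 2 was the lowest for 5 members, by 12.8-fold below the highest for Anxa4 and 37.1-fold for Anxa6, yet it was the highest for Anxa7 and Anxa11.

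Patterns were compared as the root-mean-square difference of centred log2(FPKM + 1) over 8 libraries, among 5711 candidate genes averaging 5 FPKM or more in a population. The measure describes likeness of pattern over the libraries only, not of level, and all genes of a library share its depth and scaling. Nearest to Anxa1 were Itgb7 (0.46), the integrin beta 7 subunit, Mgl2 (0.49), a macrophage lectin, and Ccr2 (0.52), the receptor that recruits monocytes. Nearest to Anxa3 were Gnas (0.24), the stimulatory G protein alpha subunit, Fam102b (0.31) and Cd9 (0.32), a tetraspanin. Since these genes were chosen for their pattern over the same libraries, their own differences are no separate result. Like Anxa1, Itgb7 was at most 0.202 FPKM and Mgl2 at most 0.148 FPKM in microglia, so both passed the filter only through the macrophages. Cd9 was at 870 ± 149 FPKM in microglia and 179 ± 80.1 FPKM in macrophages (SD, n = 4 each).

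The genes nearest to the other tested annexins were Sh3bp1, Ap1m1 and Elmo2 for Anxa2 (0.41 to 0.43), Mpp1, Rabif and Fam3c for Anxa4 (0.21 to 0.22), and Narfl, Wdr1 and Krcc1 for Anxa5 (0.13 to 0.17). For Anxa6 they were Hmha1, Osgep and Lass5 (0.18 to 0.27), and for Anxa7 Eif4g2, Qtrt1 and Psma2 (0.13 to 0.15). Between members, Anxa4 and Anxa6 were the most alike (0.42), followed by Anxa5 and Anxa7 (0.54), and Anxa1 and Anxa3 the least (3.33). The nearest genes to Anxa4 and Anxa6 shared their low value in microglia 2, for example Mpp1 at 1.15 FPKM and Hmha1 at 1.10 FPKM there.

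The 4 other annexins in the tables, Anxa8, Anxa9, Anxa10 and Anxa13, were too low to be tested. Anxa8 was at 0 in 6 libraries and reached 1.99 FPKM in macrophages 8. Anxa9 was at most 0.151 FPKM in microglia and at 0.202 to 4.06 FPKM in macrophages. Anxa10 reached 0.730 FPKM in microglia and 0.841 FPKM in macrophages. Anxa13 was listed at 0 in all microglia and reached 0.527 FPKM in macrophages.

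Partner genes were read from 5 lists in the same fit. Over all 9352 genes tested, limma called 2.34% in either direction. The lists are short, so a call in them is read for the single gene only. The S100 proteins S100a10, S100a11, S100a6 and S100a4 form complexes with annexins, and all 4 were tested, with 1 called higher, none lower, and a median difference of 2.69 beside 0.37 for all tested genes. S100a11, a partner of Anxa1, was called, at 7.24 ± 7.79 FPKM in microglia and 52.2 ± 29.6 FPKM in macrophages (SD, n = 4 each). Its log2 difference was 3.01 (SE 0.77, limma adjusted p = 0.0357), the groups overlapped, and when single libraries were left out the call was kept only without microglia 2 or without macrophages 7. It was lost with a term for Y-linked expression added to the fit (limma adjusted p = 1) and without a filter on low values (0.427). The S100a11 call was also lost with median-of-ratios scaling (limma adjusted p = 0.0822), a pseudocount of 0.1 (0.185) and no intensity trend (0.0658). S100a10, the partner of Anxa2 named here for that role, was at 6.31, 0, 0.228 and 2.46 FPKM in microglia and at 39.2, 61.6, 0 and 21.6 FPKM in macrophages. Macrophages 7 had none listed and microglia 2 none either, and S100a10 was not called (limma adjusted p = 0.193). S100a6 (adjusted p = 0.0635) and S100a4 (adjusted p = 0.202) were not called in the same limma fit.

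Formyl peptide receptors and enzymes of lipid mediators formed the next list, with 16 genes, 14 in the tables and 9 tested. None was called higher and 1 was called lower, with a median difference of 0.21. Ltc4s, which makes leukotriene C4, was called lower, at 77.1, 113, 73.6 and 50.6 FPKM in microglia 1 to 4. The macrophage libraries 5 to 8 gave 7.89, 26.8, 19.8 and 8.48 FPKM. The groups did not overlap, and the log2 difference was -2.37 (SE 0.55, limma adjusted p = 0.0198). The call was lost without microglia 1 or without macrophages 5 or 8. It was also lost with the Y-linked term (limma adjusted p = 1), without a filter (0.138) and without microglia 2 and 3 (0.133).

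The receptors of Anxa1, named here for that role, were low in most libraries. Fpr1 was at 0, 0.129, 0 and 29.1 FPKM in microglia 1 to 4. The values in macrophages 5 to 8 were 1.35, 7.12, 0.0373 and 3.71 FPKM. The highest level was thus in 1 microglia library, and Fpr1 was not called (limma adjusted p = 0.885). Fpr2, not tested, was at most 0.304 FPKM in microglia and at 3.35, 3.79, 0.0382 and 4.05 FPKM in macrophages 5 to 8, lowest in the library where Anxa1 was also lowest. Fpr3, a receptor of the same family, also not tested, was at 1.66, 0.213, 3.37 and 0.190 FPKM in macrophages 5 to 8, highest in that library.

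Of 10 plasminogen system genes, 9 were in the tables and 5 were tested, with none called higher, 1 lower and a median difference of 0.37. Serpine2, an inhibitor of plasminogen activators and thrombin, was called lower, at 207, 49.3, 94.8 and 345 FPKM in microglia 1 to 4. Macrophages 5 to 8 had 1.89, 5.23, 18.0 and 1.35 FPKM. No libraries overlapped, and the log2 difference was -4.68 (SE 0.69, limma adjusted p = 0.000225). The call was lost without a filter (adjusted p = 0.0953).

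Of 17 membrane repair genes and calcium-dependent partners, 12 were tested, with 1 called higher, none lower and a median difference of 0.10. Myof, the ferlin myoferlin, was called higher, at 0.193 FPKM in microglia 1 and 0 in the other 3 microglia libraries. Levels in macrophages 5 to 8 were 4.49, 12.1, 2.12 and 5.14 FPKM. The groups did not overlap, and the log2 difference was 2.54 (SE 0.56, limma adjusted p = 0.0124), from a gene that passed the filter only through the macrophages. The Myof call was lost with the Y-linked term (limma adjusted p = 0.513) and without a filter (0.184). Of 14 genes that expose or bind phosphatidylserine, 10 were tested, and limma called 0, with 3 at an unadjusted p below 0.05 and a median difference of -0.08. Over all 9352 tested genes, 2.34% were called and 1402 had an unadjusted p below 0.05 in limma. With that share, 0 called of 10 is no result about these genes. Axl, a receptor for bridged phosphatidylserine and the most abundant of them, was at 89.2 ± 23.5 FPKM in microglia and 118 ± 55.1 FPKM in macrophages (SD, n = 4 each; limma adjusted p = 0.794).

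**Figure D4:**
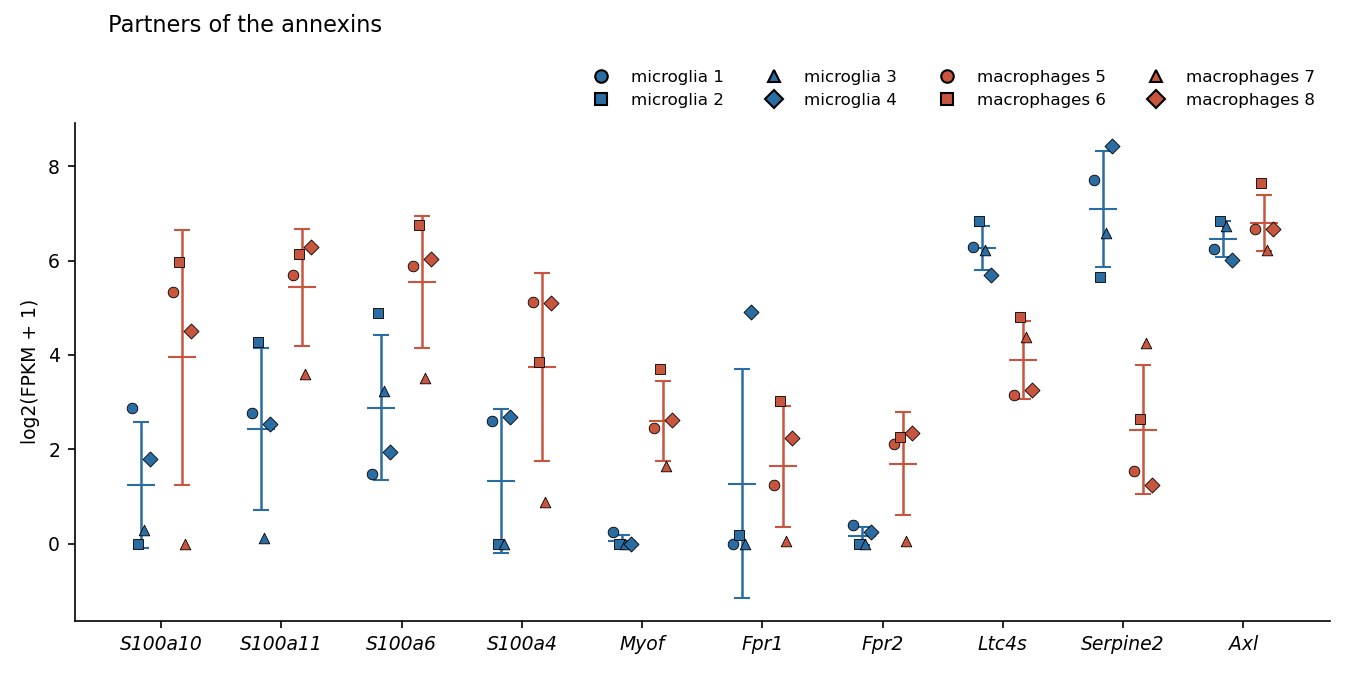
Level of 10 partner genes of the annexins in each library, as log2(FPKM + 1), for microglia (blue) and macrophages (red), with marker shapes for single libraries and the mean ± SD of the log2 values as lines. The genes are those called, the most abundant phosphatidylserine gene (Axl), and S100a10, S100a6, S100a4, Fpr1 and Fpr2, shown for their role. Macrophages 7 (triangle) is the lowest macrophage library for the S100 genes and the receptors.

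The 2 called annexins differed in how firmly their calls stood. Anxa1 was called under 20 of 22 limma alternatives, with differences of 2.73 to 6.86, the ends of which were set by the pseudocount. Its call was kept in each of 8 fits that left out a library and lost without the filter on low values (limma adjusted p = 0.0773), a filter it passed only through the macrophages. Anxa3 was called under 12 of 23, with differences of -2.23 to -1.61. The counts for both annexins include the fit to microglia 4 alone, which does not bear on stability. With a term for Y-linked expression neither was called, at an adjusted p of 0.218 and a difference of 3.98 for Anxa1 and an adjusted p of 0.588 and a difference of -2.06 for Anxa3. The plot of the called annexins by setting shows that no setting moved either across 0.

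**Figure D5:**
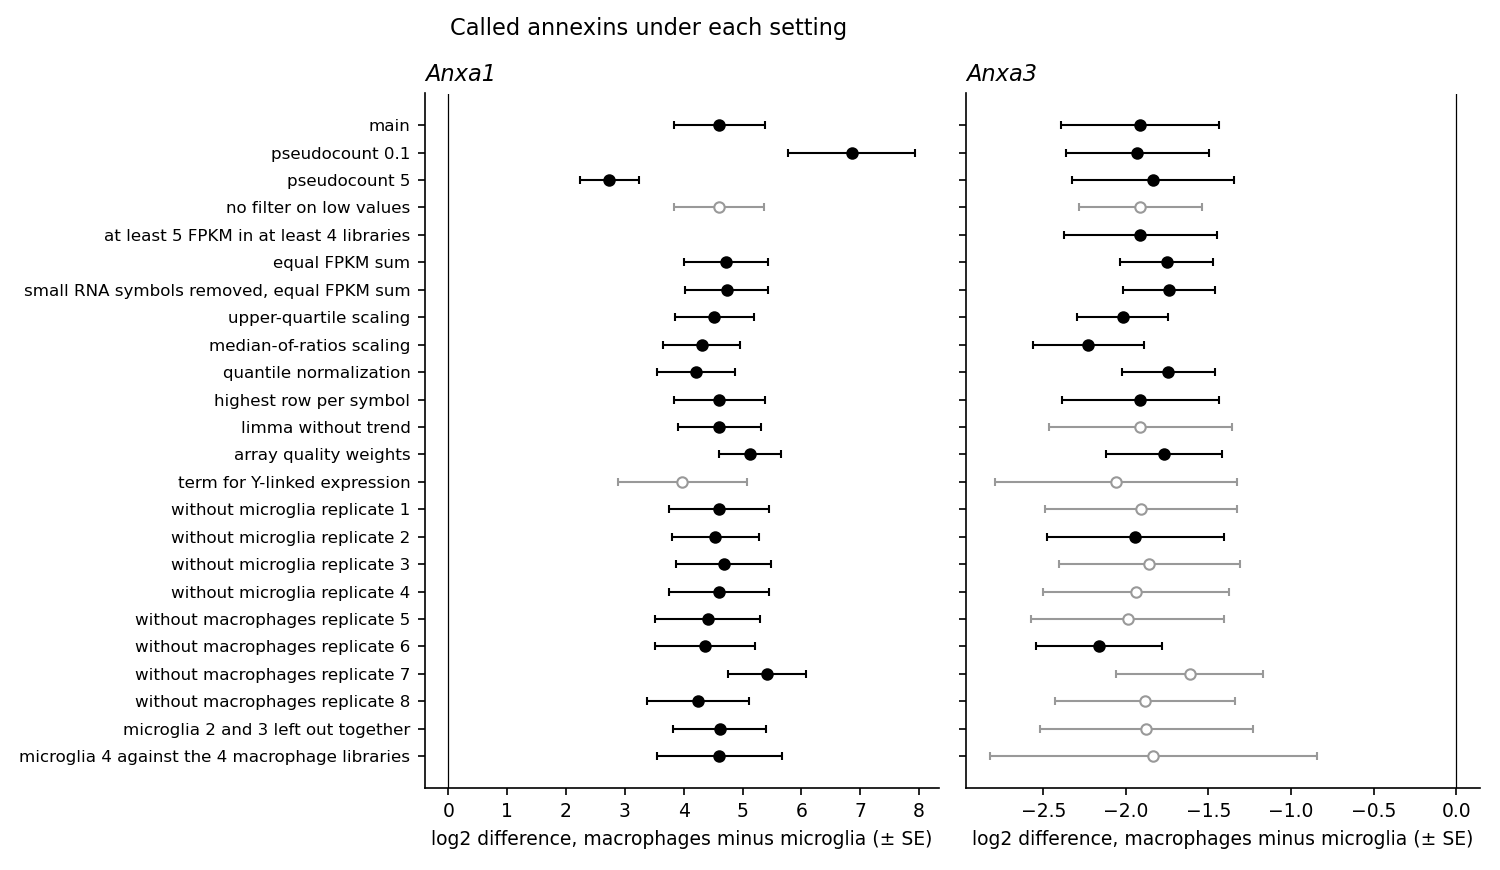
Difference of Anxa1 (left) and Anxa3 (right) under each setting of the analysis, macrophages minus microglia on the log2 scale, as the estimate ± SE. Filled points were called (limma adjusted p below 0.05) and open grey points were not, and Anxa1 has no point where the filter of at least 5 FPKM left it out.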

How the data were processed

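The authors deposited 1 table per library of Cufflinks gene-level FPKM values with their intervals, aligned to mm9, per the submitters' processing notes (Cufflinks 2.1.1, bcl2fastq 1.8.4); no source used here names the aligner or the strand setting. Of the 64 deposited annexin FPKM values, 32 lay above their own deposited interval, by at most 10.7%, so intervals were not used. Rows sharing a symbol were summed and 9 symbols with a failed estimate were left out. Log2(FPKM + 1) was tested with limma 3.58.1 in R 4.3.3, with an intensity trend, two-sided and with Benjamini-Hochberg adjustment over 9352 genes; the pseudocount of 1 understates changes of low genes. The test was run on simulated data first. No libraries were identical. Depth was estimated with an assumed fragment length of 150 bases, over transcripts of at least 800 bases. The annexins, partner lists, markers and alternatives were chosen with earlier results of these data known. Named were all annexins, every called partner, the most abundant partner where none was called, and the 3 genes nearest to each tested annexin; others are named for a role and after their values were seen. No protein sequences were used here. Intervals and floors of fragments cover counting error only.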

Additional observations from a re-analysis of the deposited data

Results flagged for a closer look

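In 16 groups of 4 libraries, the gap between the highest or lowest library and its nearest neighbour was compared with the range of the group, and gaps above Dixon's critical share of the range at 95% were noted, which chance gives in about 1 in 20 groups. For Anxa7 in microglia, library 2 (21.6 FPKM) stood above the other 3 (15.4 to 16.1 FPKM), with a gap of 0.887 of the range. For Anxa11 in macrophages, library 7 (4.46 FPKM) stood above the other 3 (0.941 to 1.05 FPKM), with a gap of 0.969 of the range.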

How the results depend on the processing

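No paired analysis was possible because the 2 groups share no replicate numbers. Against 2 annexins called, 0 were called without a filter on low values and 0 with the Y-linked term, 1 with at least 5 FPKM in at least 4 libraries (where Anxa1 was not tested), 1 without the intensity trend, 1 without microglia 2 and 3 and 1 for microglia 4 alone, 3 with array quality weights, and 1 to 2 without single libraries. Without a filter, the adjusted p in limma was 0.0773 for Anxa1 and 0.138 for Anxa3. Differences that changed sign were those of Anxa4, at -0.13 for microglia 4 alone and -0.031 to 1.12 without single libraries, and Anxa7, at -0.49 to 0.15 without single libraries. Against 4 called partners, 0 were called without a filter, 15 with array quality weights, 1 with the Y-linked term, 1 for microglia 4 alone and 2 to 8 without single libraries. Over all genes, 219 calls became 50 without a filter, 1075 with array quality weights, 25 with the Y-linked term, 136 with a pseudocount of 0.1, 132 with the 5 FPKM filter, 335 with equal FPKM sums, 341 with equal sums after small RNA removal, 54 for microglia 4 alone and 119 to 258 without single libraries. The comparison with microglia 4 alone and the alternatives for partners and shares were chosen after seeing the data; a lone library is assumed to vary like the others and has no spread of its own, so those counts do not bear on stability. The causes of these changes were not tested. Depth limits the microglial Anxa1 level, which rests on at most about 8.2 fragments.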
